A study of Mus musculus with 19 samples.

Results

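The 58 genes described here drive or carry out cell division, and they were taken by symbol from the 55536 genes of a count matrix of mouse kidney RNA. They were sorted by the phase in which their products mainly act into 9 G1 genes, 19 S phase genes and 30 mitotic genes, and all 58 had enough reads to be tested. The study compared 4 libraries of healthy kidney, 7 of obstructed kidney given vehicle and 8 of obstructed kidney given zalfermin. UUO, the model named in the series design, commonly stands for unilateral ureteral obstruction, in which a ligated ureter leads to tubular injury and fibrosis, and zalfermin is named in the title as a long-acting form of the hormone FGF21. The sample labels call the condition of the obstructed libraries MASH and call the healthy kidneys untreated, whereas the design gives UUO for the former and vehicle for the latter. The drug appears in the labels as a code, taken here to be zalfermin. Strain, sex, age, dose and time after surgery are details not given in the sources used here, and the labels do not say whether each library came from a separate animal, so the p-values measure the spread between these libraries.

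A dividing cell moves through G1, S, G2 and mitosis under kinases that are switched on by cyclins. D-type cyclins with Cdk4 or Cdk6, then E-type cyclins with Cdk2, inactivate the retinoblastoma protein, which frees E2F factors to turn on the genes of DNA replication. B-type cyclins with Cdk1 and a later wave of genes, many of them driven by Foxm1 and by the MuvB complex, then carry the cell through mitosis. Most tubule cells of a healthy adult kidney rest outside the cycle, and some can re-enter it after injury.

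Libraries held 12209122 to 14844103 counts. Levels below are CPM, the count of a gene per 1000000 counts of the library total after TMM scaling, which corrects for differences in RNA composition, and each group is described by its mean ± SD (n = 4, 7 and 8 for healthy, vehicle and zalfermin). TMM factors were 0.751 to 0.843 in healthy and 1.02 to 1.11 in obstructed libraries. Mitochondrially encoded genes took 8.77% to 10.2% of the counts in healthy libraries, 1.10% to 4.21% under vehicle and 2.95% to 4.25% under zalfermin, and vehicle replicate 6, with the 1.10%, also had the fewest genes detected (19788). A gene was called when its adjusted p from edgeR's quasi-likelihood test, after Benjamini-Hochberg adjustment over all 16026 tested genes, was under 0.05.

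Of the 58 genes 54 were higher and 1 was lower in vehicle-treated obstructed than in healthy kidneys, with a median log2 fold change of 2.36. Of all tested genes, 36.2% were called higher and 28.6% lower in this comparison, 64.8% in all, with a median log2 fold change of 0.09. The median log2 fold change was 1.01 for the G1 genes, 1.37 for the S genes and 2.96 for the mitotic genes. Single genes ran from -0.37 to 2.72, from 0.02 to 4.08 and from 0.73 to 4.06, so the phases overlapped. The G1 median includes 2 genes with a negative value, so it does not show that the other G1 genes rose less than the S genes. At least a 4-fold rise was seen in 1 of 9 G1 genes, 6 of 19 S genes and 25 of 30 mitotic genes, and at least an 8-fold rise in 0, 2 and 15 of them. In 52 of the 58 genes every vehicle library lay above every healthy library, against 24.7% of all tested genes. The other members were Ccnd1, Ccnd3, Ccne2, Mcm10, Tyms and Cdc25c, whose ranges overlapped. In whole tissue, more cells in cycle and more RNA of these genes per cell cannot be told apart.

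Summed over the members of a phase, the levels showed the same order, but abundant genes weigh most in a sum. The G1 genes together stood at 452 ± 29.7 CPM in healthy kidneys, 551 ± 29.6 under vehicle and 525 ± 43.7 under zalfermin, a ratio to the healthy mean of 1.22 and 1.16. Most of the healthy G1 sum was Ccnd1 (172 to 236 CPM) and Ccnd3 (83.7 to 105 CPM), which did not rise with obstruction. The other 7 G1 genes were called higher, so these sums do not show that they rose less than the S genes. The S genes together stood at 200 ± 13.3, 413 ± 40.8 and 409 ± 33.3 CPM, a ratio of 2.06 and 2.04. The mitotic genes together went from 77.6 ± 13.4 CPM to 437 ± 57.2 and 402 ± 73.0 CPM, a ratio of 5.64 and 5.19. Expressed per CPM of the S genes, the mitotic genes amounted to 0.342 to 0.444 in healthy libraries, 0.907 to 1.15 in vehicle libraries and 0.786 to 1.38 in zalfermin libraries, so healthy and obstructed libraries did not overlap. The coefficient of variation of the summed level between libraries was 17.3%, 13.1% and 18.2% for the mitotic genes, and between 5.36% and 9.90% for the G1 and S genes.

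**Figure D1:**
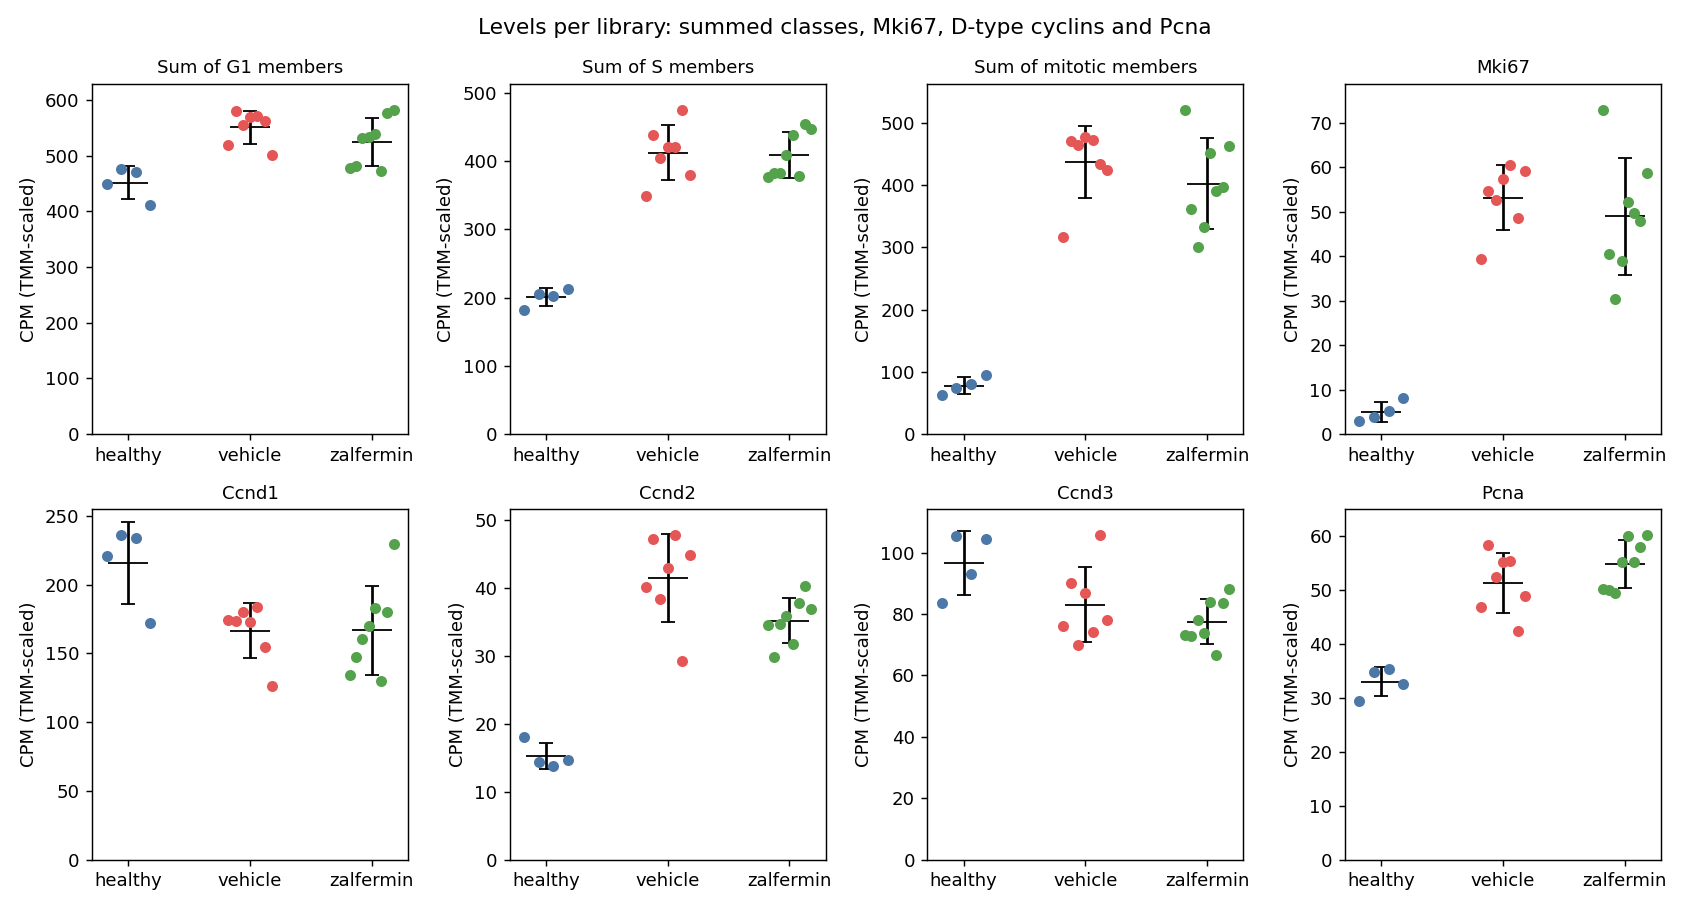
Each point is a library, placed by its TMM-scaled CPM, with the group mean as a line and the SD as a bar, for the summed G1, S and mitotic members and for Mki67, Ccnd1, Ccnd2, Ccnd3 and Pcna. The summed mitotic members lie between 62.0 and 94.3 CPM in healthy libraries and between 301 and 522 CPM in obstructed ones, whereas Ccnd1 and Ccnd3 overlap between healthy and obstructed libraries.

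The G1 genes were the only one of the 3 phase groups to hold a gene called lower. Ccnd1 (GRCm38, chr7:144929931-144939925, minus strand) encodes cyclin D1, which couples growth factor signals to cell cycle entry. Its level was 221, 236, 234 and 172 CPM in the 4 healthy libraries, 126 at the lowest, 174 at the median and 184 at the highest in vehicle libraries, and 130, 165 and 230 in zalfermin libraries. All 7 vehicle libraries lay below the healthy median, but the ranges overlapped. Ccnd1 fell by 0.37 on the log2 scale (SE 0.133, adjusted p = 0.0177), and leaving out healthy replicate 2 or 3 moved the adjusted p to 0.0622 or 0.0588. With library totals alone, a scaling added after seeing the data, its log2 fold change was 0.04 and the median of all genes moved from 0.09 to 0.51; relative to that median it was -0.46 with TMM and -0.47 with library totals.

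Ccnd2 (chr6:127125162-127152193, minus strand) encodes cyclin D2, which forms the same kind of complex. It stood at 18, 14.4, 13.8 and 14.7 CPM in healthy libraries, at 29.2, 43.0 and 47.8 (lowest, median, highest) in vehicle libraries and at 29.8, 35.3 and 40.2 in zalfermin libraries. Every obstructed library was above every healthy one, and the rise from healthy to vehicle was 1.45 (log2, SE 0.125, adjusted p = 1.06e-09). Ccnd3 (chr17:47505051-47599691, plus strand), the cyclin D3 gene, was at 83.7, 105, 93.1 and 105 CPM in healthy libraries, at 69.9, 78.1 and 106 in vehicle libraries and at 66.5, 76.0 and 88.2 in zalfermin libraries. Its log2 difference of -0.22 between vehicle and healthy was not called (adjusted p = 0.0702). Without vehicle replicate 6, the library with the highest Ccnd3, it was -0.34 and called (adjusted p = 0.00154), and it was also called without healthy replicate 1 (adjusted p = 0.0327). With library totals alone the sign of this difference turned, to 0.21 (adjusted p = 0.0546).

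The proportions of the 3 D-type cyclins shifted with obstruction. Levels were taken per kilobase of exon, with all annotated exons of a gene merged, so a comparison between genes depends on that length. By this measure Ccnd1 made up 78.2% ± 3.48 of the summed D-cyclin level in healthy kidneys, 71.6% ± 3.50 under vehicle and 73.5% ± 2.43 under zalfermin. The share of Ccnd2 was 2.80% ± 0.476, 9.01% ± 1.64 and 7.94% ± 1.31, with every obstructed library above every healthy one. The mean shares of Ccnd3 differed by less than their SD, at 19% ± 3.34, 19.3% ± 3.35 and 18.6% ± 1.37. These shares do not depend on library scaling, but their size depends on the merged exon lengths.

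The kinase partners of the D-type cyclins were higher in obstructed kidneys. Cdk4 stood at 65.2, 72.7, 73.4 and 65.0 CPM in healthy libraries, at 109, 133 and 164 in vehicle libraries and at 108, 126 and 137 in zalfermin libraries, and its vehicle to healthy log2 fold change was 0.95 (SE 0.101, adjusted p = 2.8e-08). Cdk6 stood at 39.6, 27.0, 34.1 and 30.2 CPM in healthy libraries, at 63.2, 85.3 and 98.4 in vehicle libraries and at 70.5, 77.4 and 96.3 in zalfermin libraries, a log2 fold change of 1.35 (SE 0.125, adjusted p = 3.12e-09). Neither kinase had an obstructed library within the healthy range. Measured as CPM per kilobase, Ccnd1 had the highest level of the 58 genes in healthy kidney, 45.8 ± 6.32, followed by Cdk4 at 21.3 ± 1.41. In vehicle kidneys Cdk4 stood at 41.0 ± 5.52 and Ccnd1 at 35.4 ± 4.27 per kilobase. The order of the means was thus turned, though the ranges of the 2 genes overlapped there. Any order of genes by this measure depends on the merged exon lengths used.

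Cyclin E, encoded by Ccne1 and Ccne2, acts at the entry to S phase. Ccne1 was at 0.444, 0.71, 0 and 1.37 CPM in healthy libraries, where the library without a read allows a level of up to 0.253 CPM, at 2.76, 3.57 and 7.11 in vehicle libraries and at 2.78, 3.33 and 4.35 in zalfermin libraries. This gave the largest fold change of the G1 genes, 2.72 (log2, SE 0.417, adjusted p = 5.7e-06), though it rested on 5, 8, 0 and 14 reads in the healthy libraries. Ccne2 was at 2.04, 1.33, 1.60 and 2.16 CPM in healthy libraries, at 1.60, 5.79 and 7.5 in vehicle libraries and at 2.65, 3.50 and 5.54 in zalfermin libraries. Its rise of 1.55 (log2, SE 0.346, adjusted p = 0.000472) was called although the vehicle replicate 6 value of 1.60 lay within the healthy range. E2f1, an activating E2F factor, rose as well, with 4.18, 5.68, 4.30 and 5.59 CPM in healthy libraries, 6.72, 10.4 and 13.6 in vehicle libraries, 7.14, 8.44 and 11.2 in zalfermin libraries (log2 1.01, SE 0.181, adjusted p = 4.13e-05). Cdk2, the partner of cyclin E, rose by 0.73 (log2, adjusted p = 1.2e-07).

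**Figure D2:**
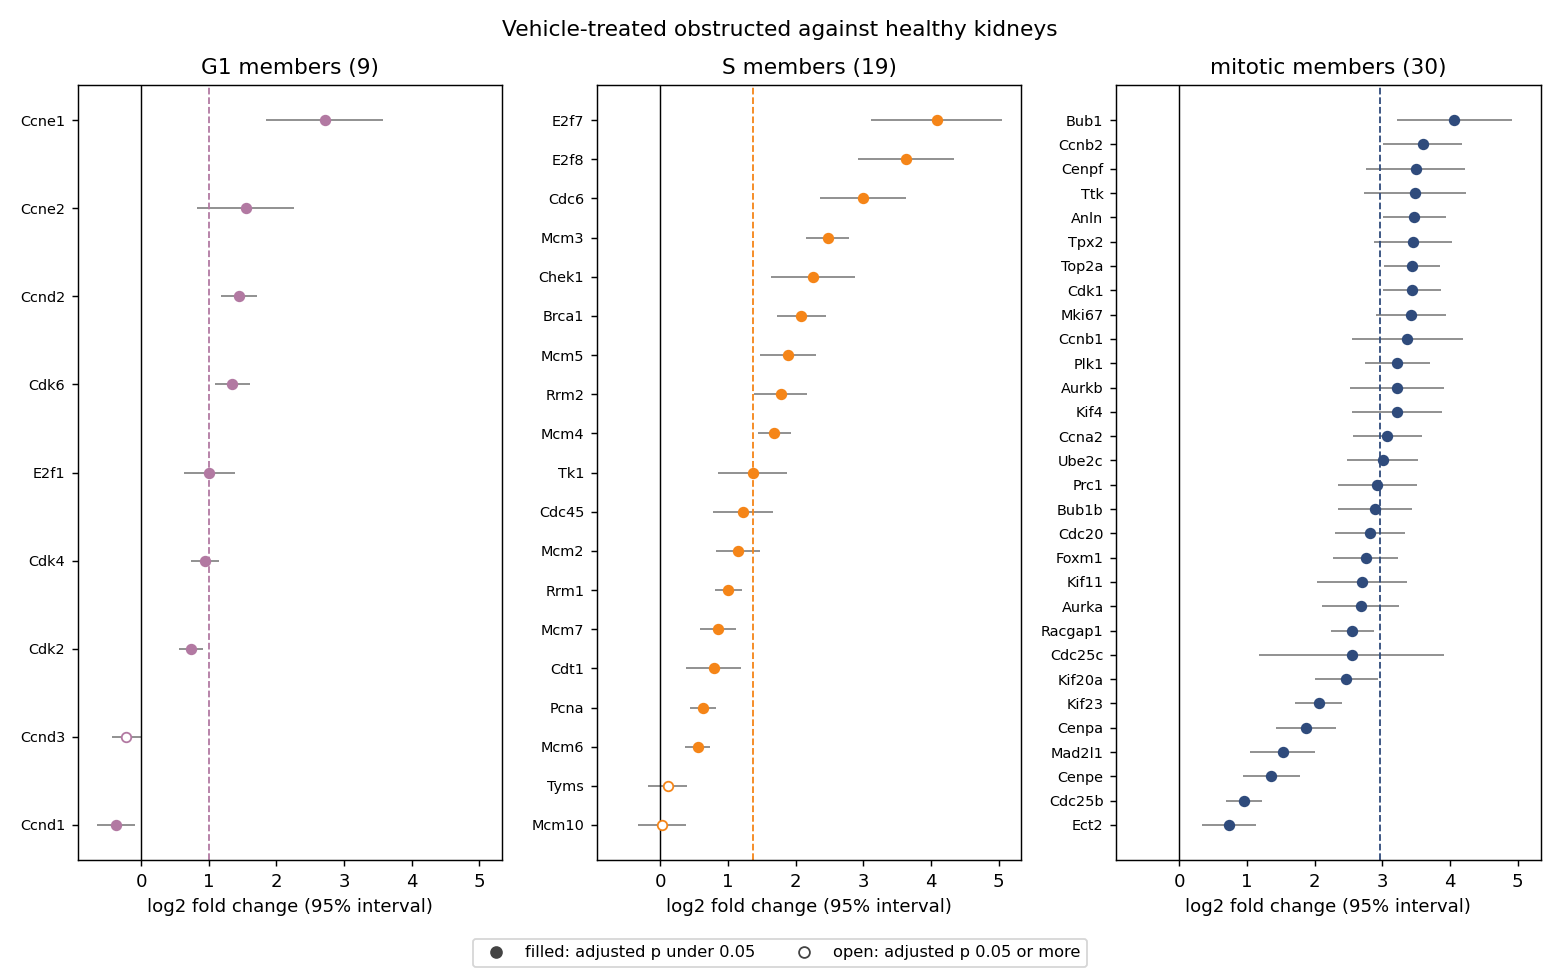
Log2 fold change of each of the 58 genes between vehicle-treated obstructed and healthy kidneys, with its 95% interval, in a panel for each phase; filled points passed an adjusted p of 0.05, open points did not, and the dashed line is the median of the phase. The medians lie at 1.01, 1.37 and 2.96, and the points left of zero are Ccnd3 and Ccnd1, both of which lie right of it with library totals alone.

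Of the S phase genes 17 of 19 were called higher with obstruction, against 36.2% of all tested genes. The remaining members, Mcm10 and Tyms, were not called. The 6 genes of the Mcm2 to Mcm7 helicase, which unwinds DNA at the replication fork, all rose, but unequally, from 0.55 (log2) for Mcm6 to 2.47 for Mcm3. Mcm2 was at 14.4, 17.3, 18.6 and 15.4 CPM in healthy libraries, at 28, 33.2 and 56.4 in vehicle libraries and at 28.2, 33.6 and 39.4 in zalfermin libraries (vehicle against healthy, log2 1.15, SE 0.154, adjusted p = 8.4e-07). Mcm5 was at 6.40, 7.10, 7.92 and 9.13 CPM in healthy libraries, at 19.5, 27.4 and 43.9 in vehicle libraries and at 22, 25.0 and 33.1 in zalfermin libraries (log2 1.89, SE 0.20, adjusted p = 2.42e-08). Healthy and obstructed libraries did not overlap for any of the 6. Of all tested genes, 24.7% lay higher without overlap in vehicle and 29.4% in zalfermin libraries, each against healthy.

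Among the factors that load and fire replication origins the response was uneven. Cdc6, which helps to load the helicase onto origins, went from 0.546 ± 0.294 CPM to 4.36 ± 0.978 in vehicle and 3.37 ± 0.652 in zalfermin kidneys (vehicle against healthy, log2 2.99, SE 0.307, adjusted p = 1.49e-08). Cdc45, a part of the active helicase, and Cdt1, a loading factor, rose by 1.22 and 0.79 (adjusted p = 2.73e-05 and 0.00122). Mcm10, which acts when the helicase is switched on, was at 3.55 to 6.38 CPM in healthy libraries, 4.37 to 6.08 under vehicle and 3.64 to 5.54 under zalfermin, and its log2 difference between vehicle and healthy was 0.02, with a 95% interval of -0.34 to 0.38 (adjusted p = 0.908). With library totals alone Mcm10 and Tyms were called higher, at 0.46 and 0.54.

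The response was also uneven among the sliding clamp and the enzymes of nucleotide supply, from 0.11 (log2) for Tyms to 1.78 for Rrm2. Pcna, the clamp that holds DNA polymerase on its template, was at 29.3, 34.8, 35.2 and 32.6 CPM in healthy libraries, at 42.3, 52.3 and 58.2 in vehicle libraries and at 49.4, 55.2 and 60.0 in zalfermin libraries, a rise of 0.64 (log2, SE 0.0934, adjusted p = 3.14e-06). Rrm2, the regulated subunit of ribonucleotide reductase, was at 4.53, 6.30, 7.75 and 9.13 CPM in healthy libraries, at 18.2, 25.3 and 26.9 in vehicle libraries and at 19.6, 22.4 and 35.5 in zalfermin libraries (log2 1.78, SE 0.188, adjusted p = 2.45e-08). Its partner subunit Rrm1 rose by 1.0 and the thymidine kinase gene Tk1 by 1.37 (adjusted p = 5.81e-09 and 4.18e-05). Tyms, the thymidylate synthase gene, stood at 14.8 ± 2.04, 16 ± 2.88 and 16.4 ± 2.05 CPM in the 3 groups, and its vehicle to healthy log2 difference of 0.11 had a 95% interval of -0.18 to 0.40 (adjusted p = 0.498).

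The largest S phase changes were those of E2f7 and E2f8, atypical E2F factors that repress E2F targets late in S phase. E2f7 had 1, 1, 1 and 3 reads in the healthy libraries, 0.0889, 0.0887, 0.0842 and 0.294 CPM, against 1.47, 2.50 and 3.34 CPM (lowest, median, highest) in vehicle and 1.47, 2.16 and 3.72 in zalfermin libraries. Its log2 fold change of 4.08 accordingly had a wide 95% interval, 3.11 to 5.05 (adjusted p = 8.25e-08). E2f8 rose from 0.326 ± 0.266 to 4.01 ± 0.454 CPM (log2 3.63, adjusted p = 4.03e-09). The checkpoint kinase gene Chek1 and the repair gene Brca1 rose by 2.26 and 2.08 (adjusted p = 7.49e-07 and 7.2e-10).

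What the S phase genes share in sequence was looked for in their promoters, taken as the 250 bases before and 50 bases from the annotated start in RefSeq on GRCm38.p6, where 48 of the 58 genes had an entry. An E2F motif was searched as TTTCCCGC, TTTCGCGC, TTTGCCGC or TTTGGCGC on both strands. It was found in 7 of 18 S genes (38.9%), 1 of 6 G1 genes and 1 of 24 mitotic genes, against 2.60% of all 27025 genes with an entry. The windows of the 4 S genes with a match and the largest rise are shown 5′ to 3′ on the strand of the gene, with the E2F matches in capitals. E2f7 lies on the plus strand at chr10:110745189-110745488, Cdc6 on the plus strand at chr11:98907901-98908200, Mcm3 on the minus strand at chr1:20820263-20820562 and Mcm5 on the plus strand at chr8:75109259-75109558.
E2f7: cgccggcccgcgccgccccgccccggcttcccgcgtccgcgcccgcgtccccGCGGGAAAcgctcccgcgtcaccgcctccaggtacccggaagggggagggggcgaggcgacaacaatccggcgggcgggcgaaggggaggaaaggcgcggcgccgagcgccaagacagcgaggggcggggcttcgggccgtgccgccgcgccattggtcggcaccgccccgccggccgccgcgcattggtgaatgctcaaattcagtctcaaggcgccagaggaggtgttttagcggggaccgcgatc
Cdc6: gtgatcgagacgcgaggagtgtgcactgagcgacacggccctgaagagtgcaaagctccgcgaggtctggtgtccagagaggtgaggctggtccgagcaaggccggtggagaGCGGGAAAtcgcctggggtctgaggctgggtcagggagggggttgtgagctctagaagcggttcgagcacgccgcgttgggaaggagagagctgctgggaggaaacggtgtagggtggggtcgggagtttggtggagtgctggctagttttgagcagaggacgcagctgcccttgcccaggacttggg
Mcm3: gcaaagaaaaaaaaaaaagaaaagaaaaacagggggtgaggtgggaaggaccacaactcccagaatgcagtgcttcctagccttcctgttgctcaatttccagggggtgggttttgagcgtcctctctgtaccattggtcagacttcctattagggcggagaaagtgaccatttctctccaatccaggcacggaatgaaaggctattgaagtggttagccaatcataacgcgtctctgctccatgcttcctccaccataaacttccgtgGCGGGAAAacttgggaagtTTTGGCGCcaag
Mcm5: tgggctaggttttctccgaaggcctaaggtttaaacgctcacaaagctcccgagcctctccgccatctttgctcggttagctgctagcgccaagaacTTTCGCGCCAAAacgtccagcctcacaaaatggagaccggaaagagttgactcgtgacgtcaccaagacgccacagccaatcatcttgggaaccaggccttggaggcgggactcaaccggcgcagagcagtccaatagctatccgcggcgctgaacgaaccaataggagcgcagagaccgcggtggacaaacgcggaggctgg
In Mcm5 a pair of matches on opposite strands overlap to form 1 run of capitals, 153 bases before the start. In Mcm3 the matches begin 19 and 38 bases after it. A match is a description of these letters and was not tested as a binding site.

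The mitotic genes were called higher in 30 of 30 cases, and in 29 of them no vehicle library overlapped a healthy one. Of all tested genes 36.2% were called higher, and in 24.7% every vehicle library lay above every healthy one. Mki67 (chr7:135689784-135716361, minus strand), the proliferation marker that coats mitotic chromosomes, was at 2.93, 3.81, 5.22 and 8.05 CPM in healthy libraries, at 39.5, 54.7 and 60.6 in vehicle libraries and at 30.3, 48.8 and 73.0 in zalfermin libraries, a rise of 3.42 from healthy to vehicle (log2, SE 0.250, adjusted p = 7.08e-11). Top2a, the topoisomerase that untangles sister chromatids, was at 2.40, 4.17, 3.96 and 4.91 CPM in healthy libraries, at 29.4, 42.5 and 49.1 in vehicle libraries and at 27.8, 38.2 and 49.8 in zalfermin libraries (log2 3.44, SE 0.20, adjusted p = 2e-12). Both markers separated healthy from obstructed libraries fully and overlapped between the obstructed groups.

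The kinases and cyclins of mitotic entry and the phosphatase gene Cdc25b showed the same separation, whereas the phosphatase gene Cdc25c did not. Cdk1 was at 0.711, 1.95, 1.52 and 1.77 CPM in healthy libraries, at 12.9, 16.2 and 18.1 in vehicle libraries and at 11.2, 13.9 and 18.5 in zalfermin libraries (log2 3.43, SE 0.206, adjusted p = 3.12e-12). Its partner Ccnb1, cyclin B1, was at 0, 1.06, 0.337 and 0.981 CPM in healthy libraries, where the library without a read allows up to 0.267 CPM, at 3.78, 6.55 and 7.5 in vehicle libraries and at 3.96, 5.35 and 8.20 in zalfermin libraries (log2 3.37, SE 0.398, adjusted p = 1.34e-07). Ccnb2, cyclin B2, rose from 1.04 ± 0.396 to 12.6 ± 2.69 CPM (log2 3.59, SE 0.282, adjusted p = 2.18e-10). Plk1, a kinase active from mitotic entry to cytokinesis, was at 0.889, 0.71, 0.758 and 0.981 CPM in healthy libraries, at 5.39, 7.89 and 10.4 in vehicle libraries and at 5.30, 6.43 and 9.15 in zalfermin libraries (log2 3.22, SE 0.230, adjusted p = 4.93e-11). The phosphatase genes that activate Cdk1 differed: Cdc25b rose by 0.95 (adjusted p = 8.36e-07), from a healthy level of 11.6 ± 1.24 CPM, and Cdc25c, with 0 to 3 reads per healthy library, by 2.55 with a 95% interval of 1.18 to 3.91 (adjusted p = 0.00179).

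Foxm1, the transcription factor of the mitotic wave, was at 1.51, 1.69, 1.43 and 1.96 CPM in healthy libraries, at 7.21, 10.3 and 17.3 in vehicle libraries and at 7.73, 9.43 and 11 in zalfermin libraries (log2 2.75, SE 0.230, adjusted p = 6.11e-10). The highest vehicle value was that of replicate 6. All 6 genes of the spindle checkpoint and mitotic exit rose, from 1.52 (log2) for Mad2l1 to 4.06 for Bub1, a checkpoint kinase. Bub1 had 3, 1, 5 and 3 reads in the healthy libraries, 0.268 ± 0.137 CPM, against 4.63 ± 1.43 CPM in vehicle libraries (SE 0.409, 95% interval 3.22 to 4.91, adjusted p = 1.12e-08).

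Genes for motors, midzone and assembly proteins of the spindle (Kif4, Kif11, Kif20a, Kif23, Prc1 and Tpx2) rose by 2.06 to 3.45, and the centromere proteins Cenpa, Cenpe and Cenpf by 1.86, 1.36 and 3.49. Cenpf went from 1.41 ± 1.06 to 15.6 ± 3.49 CPM (SE 0.354, adjusted p = 1.25e-08). The smallest rise of the mitotic genes was that of Ect2, an activator of the contractile ring, which was already at 9.98 ± 2.04 CPM in healthy kidneys and reached 16.6 ± 3.19 (log2 0.73, SE 0.193, adjusted p = 0.00207). Its partners in cytokinesis rose more, Racgap1 by 2.56 and the ring scaffold Anln by 3.47 (adjusted p = 3.12e-12 and 1.01e-11).

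A different motif was searched for in the promoters of the mitotic genes. The cell cycle genes homology region, or CHR, is the element bound by the MuvB complex; it was searched as TTTGAA on both strands. It was found in 19 of 24 mitotic genes (79.2%), 3 of 18 S genes (16.7%) and 0 of 6 G1 genes, against 20.2% of all genes with an entry. In 18 of the 19 mitotic genes a match began within 50 bases of the start, a position that was not counted over all genes. The CCAAT box, searched as CCAAT on both strands and often found near the CHR, was in 22 of 24 mitotic (91.7%), 13 of 18 S (72.2%) and 2 of 6 G1 genes (33.3%), against 41.1% of all genes. In the members, CHR matches overlapped no E2F or CCAAT match, and E2F and CCAAT matches overlapped once. The 4 mitotic genes with a CHR and the largest rise are shown 5′ to 3′ on the strand of the gene, on GRCm38.p6, with the CHR matches in capitals. Ccnb2 lies on the minus strand at chr9:70421505-70421804, Cenpf on the minus strand at chr1:189688037-189688336, Ttk on the plus strand at chr9:83834439-83834738 and Anln on the minus strand at chr9:22389157-22389456.
Ccnb2: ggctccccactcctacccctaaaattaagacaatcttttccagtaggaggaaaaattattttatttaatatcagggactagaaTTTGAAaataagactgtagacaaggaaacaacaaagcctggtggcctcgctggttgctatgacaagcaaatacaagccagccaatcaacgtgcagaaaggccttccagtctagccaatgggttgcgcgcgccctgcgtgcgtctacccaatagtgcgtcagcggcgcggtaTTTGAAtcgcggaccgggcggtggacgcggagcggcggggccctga
Cenpf: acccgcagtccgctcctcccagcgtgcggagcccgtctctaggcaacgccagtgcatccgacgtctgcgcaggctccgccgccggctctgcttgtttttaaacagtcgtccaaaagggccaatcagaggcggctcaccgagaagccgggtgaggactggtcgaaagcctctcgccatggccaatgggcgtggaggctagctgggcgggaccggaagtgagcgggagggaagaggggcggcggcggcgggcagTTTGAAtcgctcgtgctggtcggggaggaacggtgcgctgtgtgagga
Ttk: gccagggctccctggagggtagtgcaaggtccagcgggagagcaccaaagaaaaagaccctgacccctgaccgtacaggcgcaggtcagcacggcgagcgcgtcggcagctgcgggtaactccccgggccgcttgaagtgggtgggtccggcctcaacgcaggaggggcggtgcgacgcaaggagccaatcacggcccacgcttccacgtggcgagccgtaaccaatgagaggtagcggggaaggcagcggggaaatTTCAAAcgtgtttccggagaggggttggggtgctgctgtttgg
Anln: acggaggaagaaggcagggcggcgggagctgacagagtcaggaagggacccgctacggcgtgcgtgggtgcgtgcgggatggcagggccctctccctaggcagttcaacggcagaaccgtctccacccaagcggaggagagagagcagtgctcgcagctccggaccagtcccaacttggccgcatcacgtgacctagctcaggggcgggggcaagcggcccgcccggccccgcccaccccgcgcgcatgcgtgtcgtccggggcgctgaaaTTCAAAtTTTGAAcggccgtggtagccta
The match nearest to the start begins 4 bases after it in Ccnb2, 2 in Cenpf, 7 in Ttk and 21 in Anln. As with the E2F motif, no binding was measured.

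**Figure D3:**
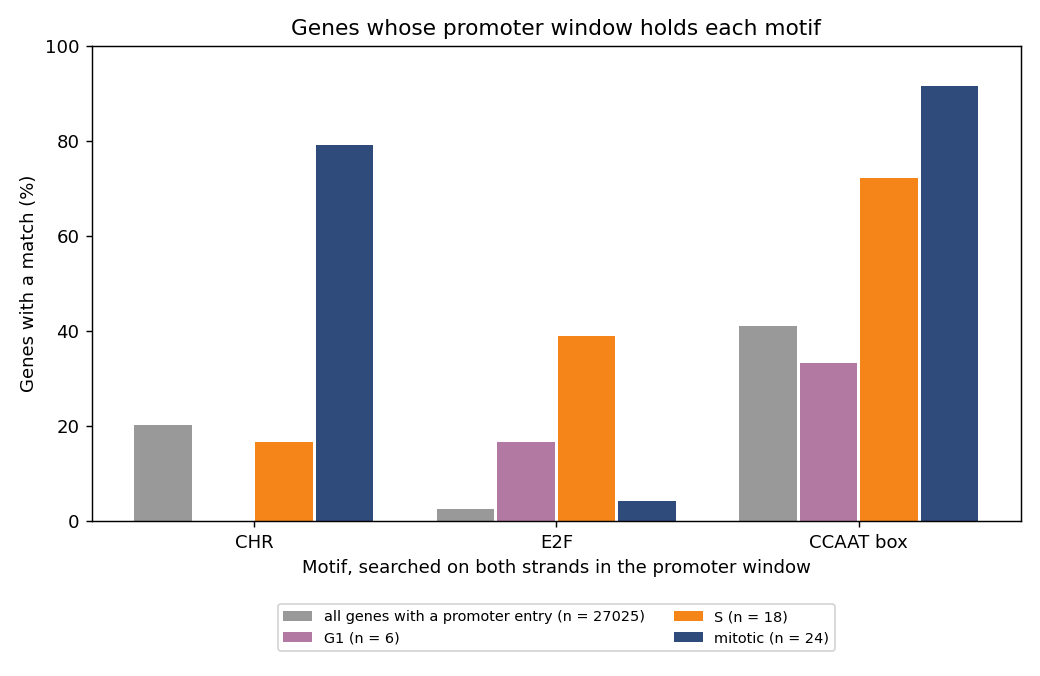
Percent of genes whose promoter window of 300 bases holds a CHR, E2F or CCAAT match, for all 27025 genes with an entry and for the G1 (6), S (18) and mitotic (24) members with an entry. The CHR bar stands at 79.2% for mitotic members against 20.2% for all genes, and the E2F bar at 38.9% for S members against 2.60%.

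Against healthy kidneys, zalfermin-treated obstructed kidneys were called higher for 54 of the 58 genes and lower for 2, Ccnd1 and Ccnd3 (37.3% and 27% of all tested genes, 64.3% in all). This comparison and the one of vehicle with healthy share the 4 healthy libraries. The median log2 fold changes were 0.86, 1.21 and 2.79 for the G1, S and mitotic genes, beside 0.13 for all tested genes. Ccnd3 was at -0.32 (adjusted p = 0.00912) and Ccnd1 at -0.37 (adjusted p = 0.0161), with overlapping ranges, and with library totals alone at 0.08 and 0.01. Mcm10 and Tyms were again not called (log2 -0.02 and 0.14).

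Between zalfermin and vehicle, edgeR called 0 of the 58 genes, against 0.867% of all tested genes higher and 0.942% lower, 1.81% in all. At an unadjusted p under 0.05 there were 5 genes, all with lower zalfermin levels: Cdc20, Cenpa, Ccnd2, Aurka and Ube2c. They made up 8.62% of the members, against 15.5% of all tested genes at that threshold, so the members passed it no more often than genes in general. DESeq2 also called 0 members, against 3.52% of the 16709 genes to which it gave an adjusted p. At an unadjusted p under 0.05 it had 6 members (10.3%), against 8.96% of 31221 genes. That wider set includes genes with too few reads for the edgeR fit, so its share cannot be compared with that of edgeR. Voom with quality weights called 1 member, Ccnd2 (1.72%), against 7.16% of all genes, with 8 (13.8%) at an unadjusted p under 0.05, against 21.9%. The log2 differences of the 58 genes ran from -0.50 to 0.12, with 44 of them below zero, beside 7694 of the 16026 tested genes. The members share libraries and are not replicates. Their medians were -0.10, -0.04 and -0.11 for the G1, S and mitotic genes beside 0.01 for all tested genes. The ranges of the groups overlapped for all 58 genes, while 0.349% of all tested genes lay higher and 0.256% lower without overlap.

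The member with the smallest p was Cdc20, the activator of the ubiquitin ligase that starts anaphase. It stood at 8.96, 13.6 and 21.9 CPM (lowest, median, highest) in vehicle libraries and at 6.75, 9.51 and 13.6 in zalfermin libraries, after 1.69, 2.40, 2.19 and 1.87 in healthy ones. The difference of -0.50 (log2, SE 0.163, 95% interval -0.84 to -0.16) had an adjusted p of 0.128, and 7 of 8 zalfermin libraries lay below the vehicle median. The highest vehicle value came from replicate 6, without which the difference was -0.38 (adjusted p = 0.169). Cenpa, the histone variant that marks centromeres, stood at 7.84, 10.2 and 12.6 CPM in vehicle and 5.94, 7.74 and 10.6 in zalfermin libraries, a difference of -0.41 (SE 0.151, adjusted p = 0.180) with 7 of 8 zalfermin libraries below the vehicle median.

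Ccnd2 was the member whose call depended on the setting. Vehicle values were 40.1, 47.2, 38.4, 43.0, 47.8, 29.2 and 44.9 CPM in replicates 1 to 7, and the 8 zalfermin libraries lay between 29.8 and 40.2, all below the vehicle median of 43.0. The difference was -0.24 (log2, SE 0.0943, 95% interval -0.43 to -0.04, adjusted p = 0.226) over all libraries. Without vehicle replicate 6, the vehicle library with the lowest value, it was -0.32 and called (adjusted p = 0.0193), and under voom it was -0.28 (adjusted p = 0.0167). Over the other settings tried the adjusted p ran up to 0.375.

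The 95% interval of the zalfermin difference included zero for 53 of the 58 genes, and its width had a median of 0.62 log2 units. It was -0.45 to 0.21 for Mki67, -0.36 to 0.17 for Top2a, -0.43 to 0.08 for Cdk1, -0.06 to 0.25 for Pcna and -0.23 to 0.23 for Ccnd1. Less well read genes allowed more, with an interval of -0.70 to 0.88 for Cdc25c and -0.75 to 0.32 for Ccne1. These intervals do not show that the groups were alike; they bound the differences the data allow.

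**Figure D4:**
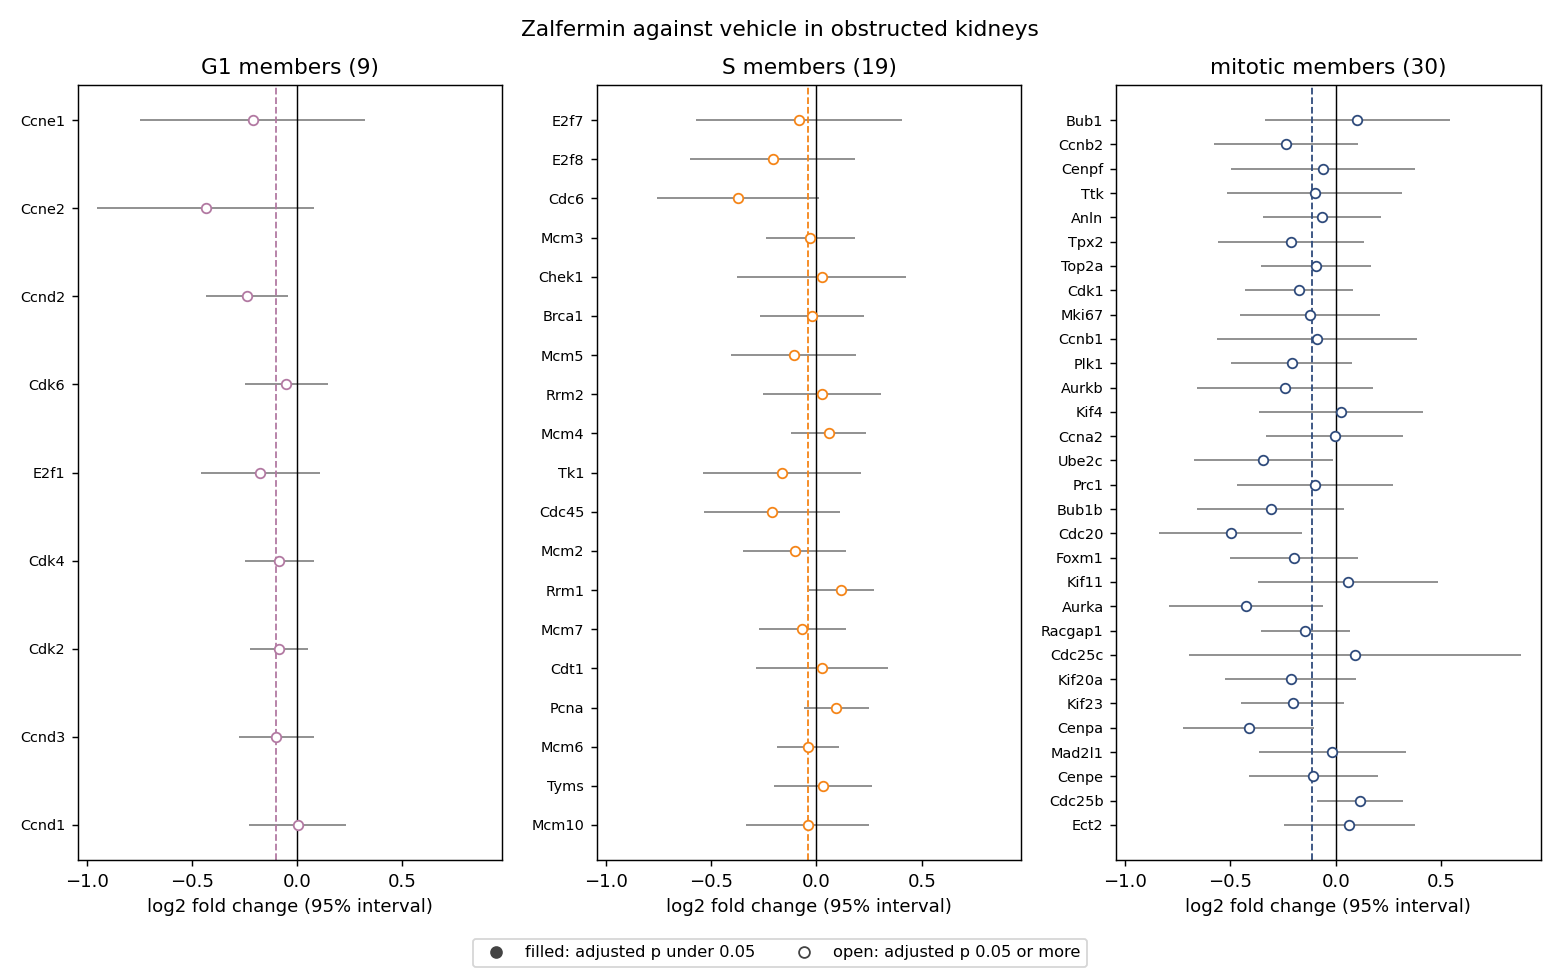
Log2 difference of each of the 58 genes between zalfermin-treated and vehicle-treated obstructed kidneys, with its 95% interval, in a panel for each phase and in the gene order of the obstruction plot; the dashed line is the median of the phase. Every point is open, since no adjusted p was under 0.05, and the lowest point is Cdc20 at -0.50.

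Within each group, single libraries held the extreme value for many members. Vehicle replicate 1 held the lowest vehicle value for 33 of the 58 genes, 21 of them mitotic, and the highest for 0. Among zalfermin libraries, replicate 1 was highest for 21 genes and replicate 3 lowest for 24. Among healthy libraries, replicate 4 was highest for 29 and replicate 1 lowest for 30.

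Vehicle replicate 6 behaved unlike the others, being highest for 23 members and lowest for 14. Its deviation from the median of the other vehicle libraries followed the GC content of the transcript, with a Spearman correlation of 0.852 and a Pearson correlation of 0.811 across the 58 genes, which share this library and are not replicates. Across the 14557 genes that averaged 1 CPM or more the correlations were 0.696 and 0.682. Among the 29 members of lower GC content (36.3% to 47.8%) it was highest for 2 and lowest for 13, and among the 29 of higher GC content (48.1% to 58.3%) highest for 21 and lowest for 1. Ccne2, at 36.3% GC, was 1.61 log2 units below the median of the other vehicle libraries, and Cdt1, at 57.8%, was 0.90 above it. The summed level of the erythroid markers was 411 CPM in this library and 40.7 to 76.9 CPM in the other vehicle libraries, and its summed proximal tubule level, 5670 CPM, was the highest of the group. Their part in its cell cycle gene levels was not tested. Median GC content was 50.9%, 49.2% and 46.5% for the G1, S and mitotic genes. Without this library the median log2 fold changes from healthy to vehicle were 0.87, 1.18 and 2.89 for the G1, S and mitotic genes, and 54 members were called higher.

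**Figure D5:**
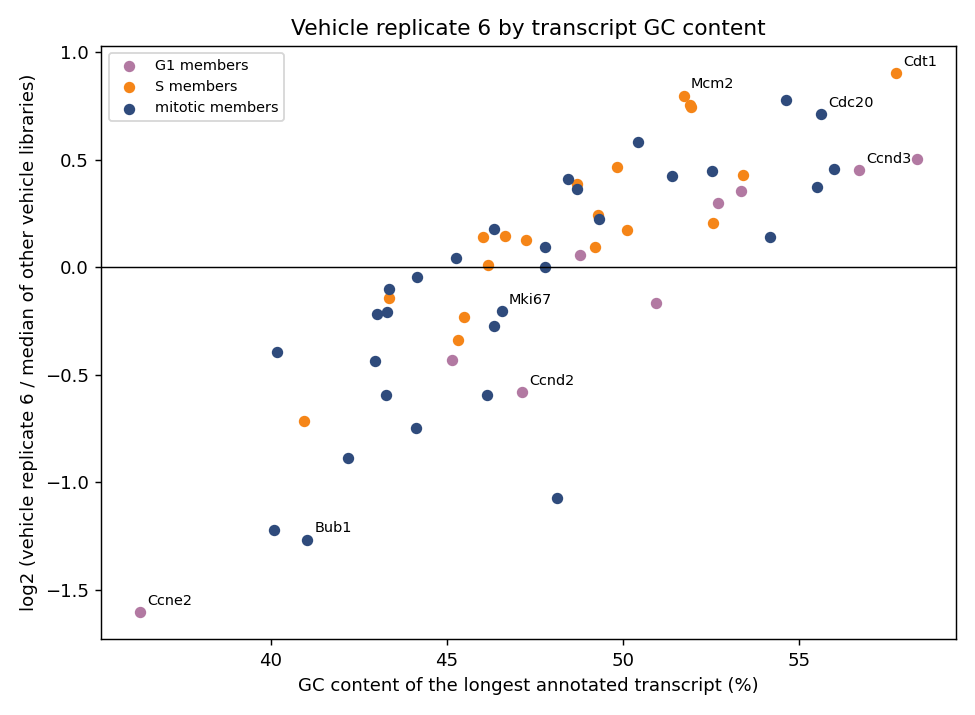
For each of the 58 genes, the log2 ratio of vehicle replicate 6 to the median of the other vehicle libraries (a pseudocount of 0.5 CPM was added) against the GC content of the longest annotated transcript in percent. Points rise from Ccne2 at 36.3% and -1.61 to Cdt1 at 57.8% and 0.90.

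Further genes of the pathway, from lists outside the 58, were counted in the same way, and the counts stand beside the 36.2% of all tested genes called higher and the 28.6% called lower with obstruction. Of 45 other mitotic genes 42 rose with obstruction and 3 fell, and their median log2 fold change was 2.36. Examples are Incenp, a subunit of the chromosomal passenger complex (5.16 ± 0.532 to 20.3 ± 4.25 CPM, log2 1.98, adjusted p = 6.26e-10), and the condensin subunit Ncaph (1.23 ± 0.545 to 8.62 ± 1.25 CPM, log2 2.82, adjusted p = 6.35e-10). Those that fell were the securin gene Pttg1, at 42.0 ± 4.65 and 28.8 ± 2.99 CPM (log2 -0.54, adjusted p = 2.16e-05), Cks2, a small Cdk-binding protein (log2 -0.57, adjusted p = 0.0127), and the kinetochore gene Spc25 (log2 -0.56, adjusted p = 0.0192). Without healthy replicate 2 or 4 Spc25 was not called (adjusted p = 0.0548 or 0.131).

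Of 29 other replication genes 21 rose and 1 fell, with a median of 0.86. Uhrf1, which keeps DNA methylation through replication, went from 1.38 ± 0.381 to 23.4 ± 5.26 CPM (log2 4.09, adjusted p = 1.68e-13), and Chaf1b, of the histone chaperone that follows the fork, rose by 2.59 (adjusted p = 1.09e-10). Of 18 other G1 control genes 7 rose (38.9%) and 3 fell (16.7%), with a median of 0.00; the share that rose was near that of all tested genes. Myc, a growth-promoting transcription factor, went from 11.3 ± 4.51 to 51.9 ± 9.76 CPM (log2 2.21, adjusted p = 1.59e-09), and Tfdp1, the dimer partner of E2F factors, rose by 0.49. Rbl2, which encodes the pocket protein of resting cells, and E2f5, a repressive E2F, fell by 0.58 and 0.53 (adjusted p = 1.07e-05 and 0.000579).

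Of 13 tested genes that hold the cycle back 8 were called higher and 1 lower, with a median of 0.75, and Cdkn2a had too few reads to be tested. Cdkn1a, which encodes the Cdk inhibitor p21, went from 10.5 ± 1.66 to 55.1 ± 9.62 CPM (log2 2.40, adjusted p = 6.69e-11), and the antiproliferative gene Btg1 rose by 1.23 (adjusted p = 1.64e-09). Ccng1, a target of p53, fell by 0.56 (adjusted p = 0.000823). Between zalfermin and vehicle, 1 of the 105 tested genes of these 4 lists was called (0.952%), a share no higher than the 1.81% of all tested genes. This was Wee1, the kinase that holds Cdk1 inactive, at 22.6, 24.5 and 36.1 CPM (lowest, median, highest) in vehicle and 35.8, 39.9 and 57.5 in zalfermin libraries. The ranges overlapped slightly, all 8 zalfermin libraries lay above the vehicle median, and the rise was 0.68 (log2, SE 0.128, adjusted p = 0.00689).

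Markers of other cell types and of tubule state moved in the same comparison. Summed CPM of 10 macrophage markers was 160 to 195 in healthy libraries, 1131 to 1506 under vehicle and 949 to 1378 under zalfermin. That of 7 fibroblast markers was 171 to 255, 2045 to 3747 and 1227 to 2003, and that of 8 T and NK cell markers 6.87 to 10.1, 23.0 to 36.6 and 14.1 to 39.5. The 6 markers of injured tubule summed to 1129 to 1517 CPM in healthy libraries, 18023 to 30337 under vehicle and 21889 to 34340 under zalfermin. The 8 of proximal tubule, the main tubule segment of kidney cortex, summed to 13612 to 16112, 2942 to 5670 and 3090 to 5782. No defining marker of these lists was at 0 in all libraries. All 10 macrophage, 7 fibroblast and 6 injured tubule markers and 7 of 8 T and NK cell markers were called higher, and all 8 proximal tubule markers lower; B cell markers were called higher in 1 of 3 tested, endothelial ones higher in 3 and lower in 1 of 5, and erythroid ones lower in 2 of 3 tested, beside 36.2% of all tested genes called higher and 28.6% lower. Between zalfermin and vehicle, 2 of the 7 fibroblast markers were called lower and 1 of the 6 injured tubule markers higher. In that comparison 0.942% of all tested genes were called lower and 0.867% higher. The part of each cell type in the levels of the cell cycle genes was not tested.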

How the data were processed

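RNA of whole mouse kidney was sequenced in 19 libraries, 4 healthy, 7 vehicle and 8 zalfermin, grouped from the sample labels; replicate numbers only name libraries. Per the labels' protocols, libraries were made with a directional kit, and per the submitters' processing notes STAR 2.7.0f and GRCm38 were used. The deposited values are raw counts per gene, whole numbers that the authors did not normalize. The counting program and strand setting, not given in the sources used here, mean that reads from genes overlapping on opposite strands cannot be told apart.

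Genes were filtered with filterByExpr (minimum count 10, minimum total 15), scaled by TMM and fitted in 1 quasi-likelihood model of the 3 groups (edgeR 4.0.16, R 4.3.3), with two-sided tests, Benjamini-Hochberg adjustment over 16026 genes and a threshold of 0.05. No library pair of a group agreed within sampling noise. By chi-square per degree of freedom, larger where a pair agreed less, vehicle pairs with replicate 6 stood at 62.8 to 87.9. The other vehicle pairs stood at 5.81 to 25.3. The floor of a library without a read is 3 counts, and it and the counting behind CPM cover counting error only. Exon lengths, GC content and coordinates came from GENCODE M21 on GRCm38, in which all 55536 identifiers were found, and promoter sequences from RefSeq on GRCm38.p6. Motifs of 5 to 8 letters also match other promoters, in 2.60% to 41.1% of all genes with an entry, so shares are given beside those of all genes.

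The 58 members, the phase groups and the lists were chosen with earlier results of these data known. Named were 18 core genes, the 3 largest and 2 smallest changes of each phase with obstruction, every member called lower, the 3 members with the smallest p under zalfermin and, of each other list, the 2 genes with the smallest p in each direction; Cdk2, Cdt1, Cdc45, Rrm1, Tk1, Chek1, Brca1, Cdc25c, Racgap1, Anln, Spc25 and the spindle genes were added after their values were seen. Alternatives were RLE, upper-quartile and no scaling, DESeq2 1.42.0, limma 3.58.1 (voom with quality weights), no filter and one of 1 CPM in 10 libraries, a robust fit, a fit of the 2 groups compared and leaving out each library. The fits were tested on simulated data in which few genes changed, all of them upward. That test does not cover the scaling of data in which most genes change, as here with obstruction. A gene that the rule would name in the other lists is not reported here, though the counts include it.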

Additional observations from a re-analysis of the deposited data

Results flagged for a closer look

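In 10 of 174 groups of values (58 genes in 3 groups) the highest or lowest library lay far from the rest of its group by Dixon's test at the 95% level, and chance alone sets apart about 1 group in 20. Vehicle replicate 6 accounted for 3 of them: Mcm2 was 56.4 CPM there against at most 38.7 in the other vehicle libraries, Cdt1 was 21.7 CPM against at most 13.2, and Bub1 was 1.74 CPM against at least 4.41. The transcripts of Mcm2 and Cdt1 have a GC content of 51.7% and 57.8%, that of Bub1 41.0%. Vehicle replicate 2 had the highest Ccne1, 7.11 CPM against at most 4.41, and vehicle replicate 1 the lowest Top2a, 29.4 CPM against at least 40.7.

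Among zalfermin libraries, replicate 5 had the highest Rrm2, 35.5 CPM against at most 27.1, and replicate 1 the highest Bub1b, 15.1 CPM against at most 10.9. Among healthy libraries, replicate 4 had the highest E2f7, 0.294 CPM from 3 reads against at most 0.0889 from 1 read, and the highest Aurka, 1.37 CPM against at most 0.977. Healthy replicate 1 had the lowest Ccnb2, 0.444 CPM against at least 1.18. Each of these values was kept in every comparison.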

How the results depend on the processing

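The number of members called higher with obstruction was 54 under every setting tried except library totals alone, where it was 56. The number called lower, 1 (Ccnd1, the only G1 gene), was 2 with RLE scaling, DESeq2 and voom, where Ccnd3 was added, 0 with library totals alone, and 0 to 2 with a library left out. Against healthy kidneys, the 2 members called lower under zalfermin (both G1) became 0 with library totals alone and 1 to 2 with a library left out. For zalfermin against vehicle, 0 called lower became 1 (a G1 gene, Ccnd2) with voom and 0 to 1 with a library left out. Library totals alone turned the sign of Ccnd1 (0.0448 for vehicle and 0.0106 for zalfermin, each minus healthy), of Ccnd3 (0.21 for vehicle, not called in either setting, and 0.0752 for zalfermin, each minus healthy) and of Mcm10 (0.38, zalfermin minus healthy); that setting moves all genes up together. Of 3770 member values under alternatives, 3752 kept their side of the threshold, of which 3650 kept their sign and 102, called in neither setting, turned it (88 of these for zalfermin against vehicle, and 13 of the others Mcm10). Of 1040 values of 16 genes outside the members 1027 kept their side of the threshold, 3 of them with a turned sign, and 13 did not: calls of Pttg1, Cks2, Rbl2, E2f5, Ccng1 and Spc25 were lost with library totals alone, that of Spc25 also without healthy replicate 2 or 4, and Spc25 was called lower under zalfermin against healthy with only the 2 groups fitted. Over all genes, zalfermin calls were 139 higher and 151 lower, 105 and 191 with upper-quartile scaling, 255 and 333 with DESeq2, 502 and 646 with voom, and 242 and 275 without vehicle replicate 6; with library totals alone obstruction calls were 9373 higher and 2344 lower in place of 5799 and 4588. No paired analysis was possible because the numbering merely follows sample order. Members with few healthy reads (E2f7, Bub1, Cdc25c) have wide intervals, and the 4 healthy libraries limit every fold change from them.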
